A study of Cucumis sativus with 6 samples.

Results

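A set of 6 candidate genes for the pathway that leads to cucurbitacins, the bitter triterpenes of cucumber (Cucumis sativus), was described in female flower buds of Cshec2-/- plants. They are 6 of the 1589 genes in the authors' deposited table, selected on their higher or lower values in mutant buds and taken by gene identifier: a gene described as cucurbitadienol synthase, 4 cytochrome P450 genes and a gene described as squalene monooxygenase. Their place in the pathway rests on similarity to described proteins and was not tested. The study compared these plants, called Cshec2 mutant here, with wild type plants, each in 3 libraries of total RNA from female buds collected 7 days before anthesis. The design text calls the libraries of a genotype biological replicates; the kind of mutation, the number of mutant lines and any pooling of buds are not stated there or in the labels. The table lists only genes that the authors had selected for differing between these genotypes, and the 6 genes were chosen by the values of that same contrast. The difference between genotypes is therefore given as a description, without a test.

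Cucurbitacins are made from squalene, the same precursor that plants use for sterols and for other triterpenes. Squalene monooxygenase turns squalene into oxidosqualene, and different oxidosqualene cyclases then fold it into cycloartenol for sterols, into beta-amyrin, or into cucurbitadienol, the skeleton of the cucurbitacins. Cytochrome P450 enzymes oxidise cucurbitadienol, and acyltransferases and glycosyltransferases can decorate the product. In cucumber the cucurbitadienol synthase gene is known as Bi, for bitter, and it lies on chromosome 6 in a cluster with P450 genes. Basic helix-loop-helix factors, the class to which HECATE proteins belong, are known to switch this cluster on in bitter leaves and fruit.

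The cyclase gene and the 4 P450 genes were all higher in Cshec2 mutant buds, and squalene monooxygenase, the enzyme that makes oxidosqualene, was lower. Between the genotypes the values of the 6 genes did not overlap in any case. Means differed by 10.2-fold for the cyclase and by 3.93-fold to 6.54-fold for the P450 genes, while squalene monooxygenase was 2.00-fold lower in mutant buds. In the fit over all listed genes (limma on log2(value + 1), Benjamini-Hochberg adjusted p under 0.05), 5 of the 6 passed as higher and 1 as lower in mutant buds. Of all listed genes 92.7% passed, 18.4% as higher and 74.3% as lower, and the values of 94% did not overlap between genotypes (18.3% with the mutant higher, 75.7% with it lower). Because selection into the table used this contrast, nothing is read from these counts. All values below are the authors' normalised expression values, whose unit the table does not name, and buds with fewer cells of a type and buds with less RNA per cell cannot be told apart in such bulk libraries.

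Squalene monooxygenase stands first in the order of the pathway. Csa7G069710, whose closest described protein is squalene monooxygenase of Panax ginseng, measured 13.8, 14.9 and 19.5 in Cshec2 mutant libraries 1 to 3, against 40.2, 29.7 and 26.3 in wild type libraries 1 to 3. The lowest wild type library lay 1.35-fold above the highest mutant library, the narrowest gap among the 6 genes. Its mean was 16.0 ± 3.02 in mutant and 32.1 ± 7.25 in wild type buds (SD, n = 3 each), a difference of -0.95 on the log2(value + 1) scale (SE 0.21). This difference depended on how the libraries were put on one scale. The listed values summed to between 23592 and 24173 in the mutant and to between 41126 and 59342 in wild type libraries, and the median log2 difference of all listed genes was -0.77. After scaling by the median of ratios over the listed genes, squalene monooxygenase averaged 22.1 in mutant and 23.6 in wild type buds, a log2 difference of -0.063 that did not pass. Relative to the other listed genes squalene monooxygenase was thus close to the middle, at rank 568 of 1589 counted from the lowest log2 difference. It was the 1 listed gene of the steps between the mevalonate pathway and oxidosqualene.

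By the ratio of mean deposited values the cyclase differed more than the other 5 genes. Cucumis_sativus_newGene_607, described as cucurbitadienol synthase from its similarity to the enzyme of Cucurbita pepo, carries the squalene-hopene cyclase domains of this enzyme family. Whether this newly annotated locus is the Bi gene was not tested, and its identifier gives no chromosome position. The gene measured 4.44, 7.88 and 8.93 in Cshec2 mutant libraries 1 to 3, against 0.593, 0.0511 and 1.43 in wild type libraries 1 to 3. Even the lowest mutant library lay 3.11-fold above the highest wild type library. Wild type library 2 was almost without signal, and the wild type libraries spanned 28.0-fold, against 2.01-fold in the mutant. The gene averaged 7.08 ± 2.35 in mutant and 0.691 ± 0.695 in wild type buds (SD, n = 3 each). Its log2(value + 1) difference of 2.29 (SE 0.36) was the 4th highest of the 1589 listed genes, and with a pseudocount of 0.1 the difference was 3.67. This first place among the 6 did not hold after median-of-ratios scaling, where the cyclase stood at 2.87, against 2.90 for Csa6G088170 and 2.89 for Csa3G903540, nor in the authors' deposited table, where its log2 fold change is the smallest of the 5 higher genes.

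**Figure D1:**
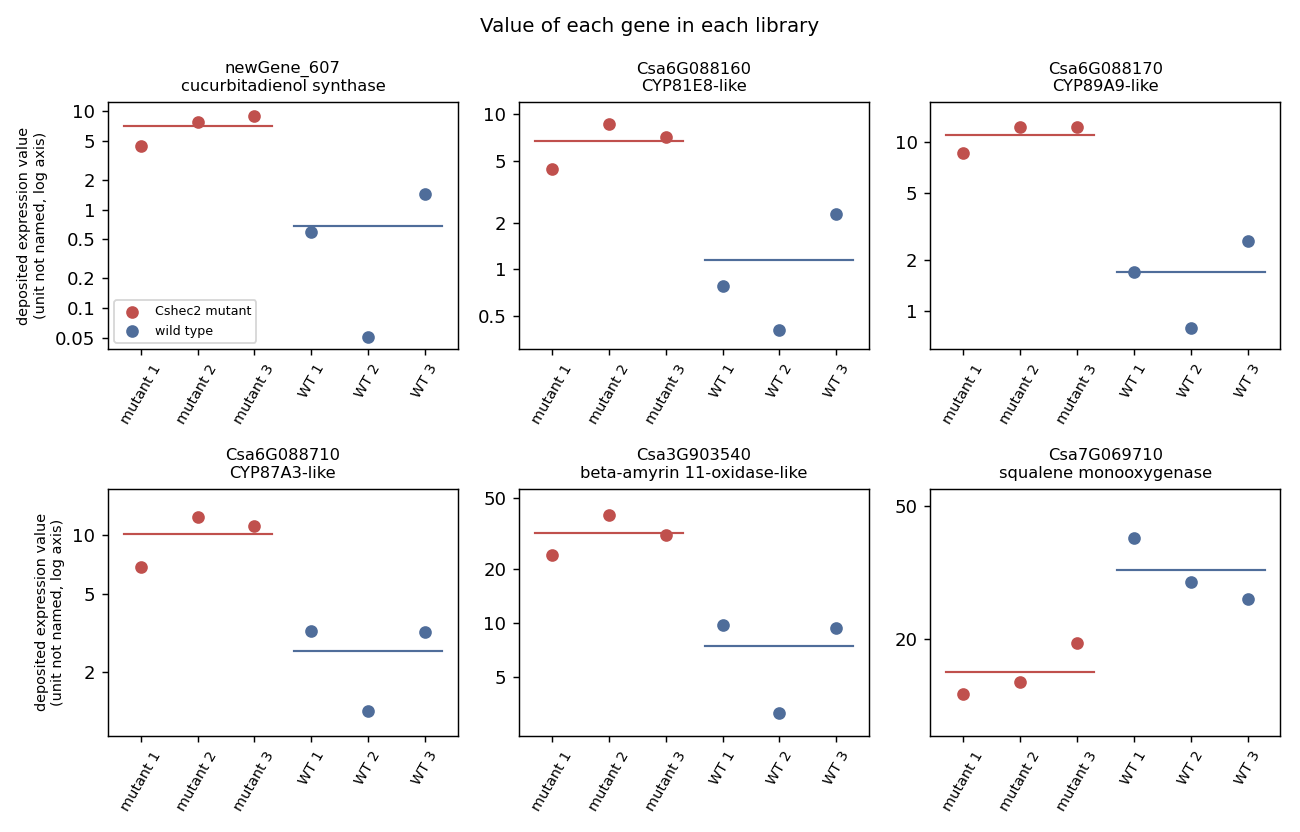
Deposited expression value (unit not named, log axis) of the 6 genes in each of the 3 Cshec2 mutant and 3 wild type (WT) libraries; points are libraries and lines are genotype means. The cyclase and the 4 P450 genes lie above every wild type library in all 3 mutant libraries, squalene monooxygenase lies below, and wild type library 2 is lowest in all 5 of the genes that are higher.

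Of the 4 P450 genes, 3 carry chromosome 6 identifiers that lie close together, Csa6G088160, Csa6G088170 and Csa6G088710. Csa6G088170, whose best described relative is CYP89A9 of Arabidopsis thaliana, an enzyme of chlorophyll breakdown there, measured 8.58, 12.2 and 12.4 in mutant libraries 1 to 3. Its wild type libraries 1 to 3 measured 1.70, 0.792 and 2.58. It had the widest gap of the 6 genes, with the lowest mutant library 3.33-fold above the highest wild type library, and a log2 difference of 2.20 (SE 0.29).

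Csa6G088160 resembles CYP81E8 of Medicago truncatula and was named isoflavone 2'-hydroxylase-like in the second annotation. It measured 4.47, 8.60 and 7.10 in mutant libraries 1 to 3, against 0.786, 0.408 and 2.27 in wild type libraries 1 to 3. Wild type library 3 came nearest to the mutant, and the lowest mutant library still lay 1.97-fold above it. Its log2 difference was 1.90 (SE 0.36). P450s of the CYP81, CYP87 and CYP88 families are known to oxidise cucurbitadienol in cucurbits.

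Csa6G088710 resembles CYP87A3 of rice (Oryza sativa). It measured 6.88, 12.4 and 11.1 in mutant libraries 1 to 3, against 3.25, 1.26 and 3.22 in wild type libraries 1 to 3. Wild type libraries 1 and 3 were nearly equal here and library 2 was the low one. The lowest mutant library lay 2.12-fold above the highest wild type library, and the log2 difference of 1.66 (SE 0.32) was the smallest of the 5 higher genes.

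The P450 gene on the chromosome 3 identifier series was also higher. Csa3G903540 resembles beta-amyrin 11-oxidase (CYP88D6) of Glycyrrhiza uralensis, which oxidises a triterpene skeleton on the way to the sweet compound of licorice. It measured 23.8, 40.1 and 31.1 in mutant libraries 1 to 3, against 9.73, 3.16 and 9.44 in wild type libraries 1 to 3. The lowest mutant library lay 2.45-fold above the highest wild type library, and the log2 difference was 2.05 (SE 0.40). Wild type library 2 again stood below the other two. By log2(value + 1) difference the order of the 5 higher genes was the cyclase, Csa6G088170, Csa3G903540, Csa6G088160 and Csa6G088710, but neighbours in this order differed by between 0.09 and 0.24, less than the SE of any of them.

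Clustering by identifier was looked at next. The identifiers of the chromosome 6 P450 genes lie within 1000 of 2 further listed genes, both without a Swiss-Prot description. Csa6G088100 averaged 1.83 ± 0.316 in mutant and 3.15 ± 0.194 in wild type buds, and Csa6G088010 averaged 17.5 ± 2.36 in mutant and 26.2 ± 5.27 in wild type buds (SD, n = 3 each). Both were lower in the mutant by -0.56 and -0.55 on the log2 scale, whereas the P450 genes beside them in the numbering were higher. After median-of-ratios scaling the differences of the 2 genes were 0.095 and 0.34 and neither passed. That scaling moved the median of all listed genes from -0.77 to -0.025. It raises differences, so it can remove lower calls but gives no test of the higher P450 genes. The calls of Csa6G088100 and Csa6G088010 were also lost when mutant library 2 was left out, and that of Csa6G088010 when mutant library 1 or 3 was. Around Csa3G903540 there were 4 further listed genes, of which Csa3G904090 and Csa3G902920 passed as higher, also after median-of-ratios scaling, which raises differences. Csa3G903460 and Csa3G902910 passed as lower and lost their calls after that scaling, with log2 differences of 0.0069 and -0.46. Csa3G904090, without a described function, averaged 14.9 ± 5.42 in mutant and 4.50 ± 0.814 in wild type buds, and Csa3G902920, described as acetylornithine deacetylase, averaged 10.7 ± 1.08 in mutant and 5.20 ± 1.99 in wild type buds. The call of Csa3G902920 was lost without mutant library 2, and that of Csa3G902910 when any library other than mutant library 2 or wild type library 3 was left out. No listed gene lay that close to squalene monooxygenase, and Cucumis_sativus_newGene_607 carries no position in its identifier. Identifier distance is not a distance in bases, and no coordinates are given because the RefSeq table used here did not match any of the 6 identifiers (0 matches).

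The library-to-library variation within a genotype does not use the difference between genotypes, so it was used to see which genes varied together. In all 5 higher genes mutant library 1 was the lowest of the mutant libraries and wild type library 2 the lowest of the wild type libraries. This order held for 233 of the 1589 listed genes (14.7%), and for 41 of the 293 genes that passed as higher (14.0%). The value of each library was then set against its genotype mean on the log2(value + 1) scale. Over the 6 libraries these deviations were alike among the 5 higher genes, with Pearson r between 0.76 and 0.98 over their 10 pairs and a median of 0.91. Squalene monooxygenase was unlike them, with r between -0.18 and 0.36 to the same 5 genes, and it was lowest in wild type library 3, where the cyclase was highest.

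Among the 1491 other listed genes with a mean of at least 1, the median r to the cyclase was 0.31, and 105 genes (7.04%) reached 0.8. Csa6G088170 had r = 0.98 and rank 5, Csa6G088160 r = 0.94 and rank 24, Csa6G088710 r = 0.89 and rank 44, and Csa3G903540 r = 0.81 and rank 96. Squalene monooxygenase had r = 0.13 and rank 964. The 6 points share their libraries and, with both genotype means removed, are few, so these values are a description only. When each library in turn was left out, r stayed between 0.96 and 0.99 for Csa6G088170, between 0.90 and 0.98 for Csa6G088160, between 0.78 and 0.97 for Csa6G088710 and between 0.61 and 0.92 for Csa3G903540. For squalene monooxygenase it moved between -0.17 and 0.86, and 0.86 was reached without wild type library 3. After median-of-ratios scaling r was 0.96 for Csa6G088170, 0.92 for Csa6G088160, 0.85 for Csa6G088710, 0.73 for Csa3G903540 and 0.018 for squalene monooxygenase. Their ranks after that scaling were 8, 17, 41, 81 and 767. The ranks were less stable than r. With 1 library left out they ran between 6 and 67 for Csa6G088170, between 23 and 168 for Csa6G088160, between 58 and 193 for Csa6G088710, between 112 and 291 for Csa3G903540 and between 211 and 1120 for squalene monooxygenase.

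**Figure D2:**
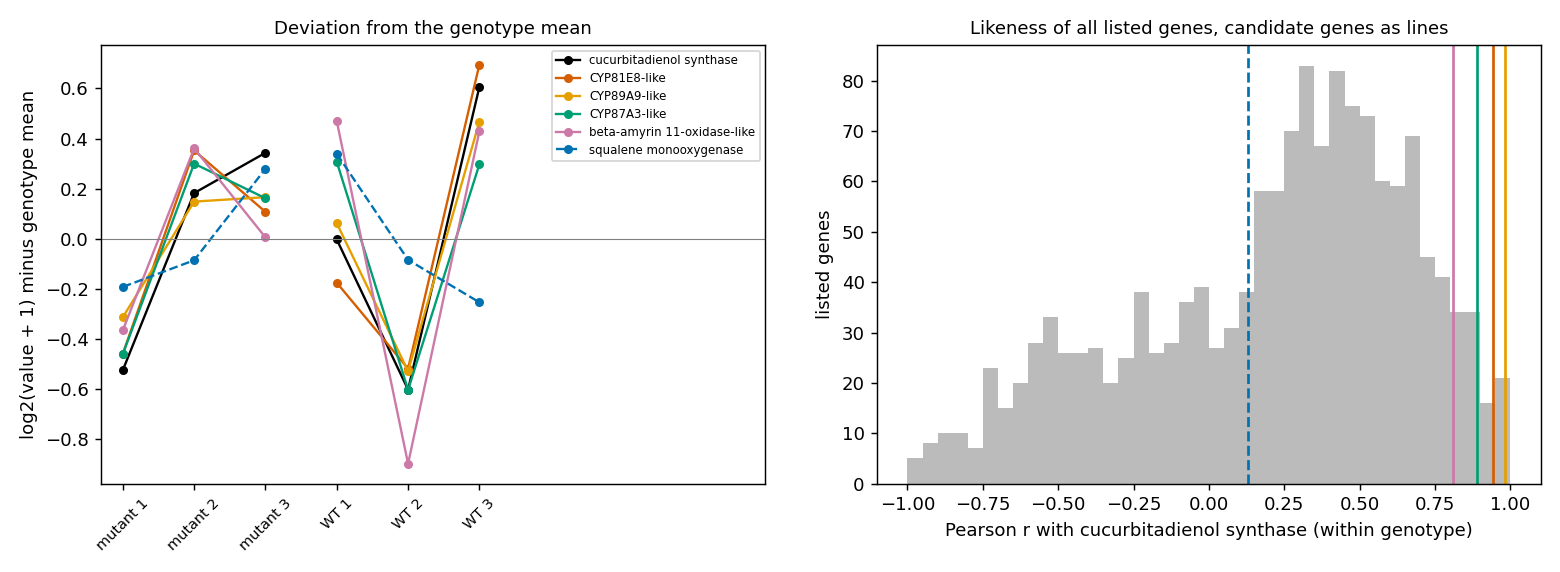
Left, deviation of each library from its genotype mean on the log2(value + 1) scale for the 6 genes, with lines joining the 3 Cshec2 mutant and the 3 wild type libraries as a guide; right, number of listed genes by Pearson r of these deviations with those of cucurbitadienol synthase, with the 4 P450 genes as solid lines and squalene monooxygenase as a dashed line. The P450 genes lie at r between 0.81 and 0.98, against 0.13 for squalene monooxygenase. The median is 0.31 for the 1491 other listed genes with a mean of at least 1.

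The 5 further genes most like the cyclase within genotypes went in both directions between genotypes. Csa6G185830, described as dehydrodolichyl diphosphate synthase, which builds long isoprenoid chains for dolichol, had the highest r (0.995). It averaged 2.88 ± 0.755 in mutant and 18.5 ± 5.38 in wild type buds, so it differed from the cyclase in direction. Csa5G168910 and Csa6G490880, without a described function (r = 0.993 and 0.982), and Csa4G639890, described as phospholipase DAD1 (r = 0.990), also passed as lower in the mutant, although after median-of-ratios scaling Csa6G490880 and Csa4G639890 lost their calls, at 0.024 and 0.0026 on the log2 scale. Csa4G639890 also lost its call without mutant library 1, mutant library 2 and wild type library 3. The last of the 5 was a further P450 gene, Csa3G698490, described as CYP705A5-like, with r = 0.98 and rank 6, next to Csa6G088170.

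Csa3G698490 measured 6.54, 11.1 and 10.3 in mutant libraries 1 to 3, against 4.66, 3.25 and 7.01 in wild type libraries 1 to 3. It had the same lowest libraries as the 5 higher genes, and its genotypes overlapped, because mutant library 1 lay below wild type library 3. Its log2 difference was 0.81 (SE 0.29). It passed in the fit over all libraries. With mutant library 2 left out the log2 difference was 0.67, with mutant library 3 left out 0.73 and with wild type library 2 left out 0.58, and in these 3 fits it did not pass. After median-of-ratios scaling, which raises the differences of listed genes, it passed with a log2 difference of 1.60. Its r to the cyclase stayed between 0.96 and 0.998 when each library was left out in turn, with ranks between 4 and 70.

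Other oxidosqualene cyclases listed in the table went the other way from cucurbitadienol synthase. The list of oxidosqualene cyclases held 3 genes, of which 1 was higher and 2 were lower in mutant buds. Of all listed genes 74.3% passed as lower, so nothing is read from this count. The median log2 difference of the 3 genes was -2.33, the value of Csa5G478610, against -0.77 for all listed genes. Csa5G478620, described as Beta-Amyrin Synthase 2, measured 3.14, 2.91 and 3.64 in mutant libraries 1 to 3, against 30.5, 24.5 and 15.4 in wild type libraries 1 to 3. The lowest wild type library lay 4.23-fold above the highest mutant library, and the log2 difference was -2.49 (SE 0.26). Csa5G478610, described as Beta-Amyrin Synthase 1, measured 0.522, 1.07 and 2.01 in mutant libraries 1 to 3, against 12.4, 9.52 and 7.50 in wild type libraries 1 to 3. Its log2 difference was -2.33 (SE 0.29). Both genes also passed as lower after median-of-ratios scaling. How reads shared by 2 genes this similar in name and identifier were counted is not stated, which leaves the value of each gene uncertain. The same holds for cucurbitadienol synthase, whose identifier comes from a newly annotated locus.

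Ratios of 2 genes within a library do not depend on how libraries are scaled, and they were taken along this branch point. The ratio of cucurbitadienol synthase to squalene monooxygenase was 0.323, 0.529 and 0.459 in mutant libraries 1 to 3, against 0.0147, 0.00172 and 0.0543 in wild type libraries 1 to 3. The lowest mutant ratio was 5.94 times the highest wild type ratio. One gene had been chosen as higher and the other as lower, so the separation of this ratio follows from the choice and is given as a description. The ratio of cucurbitadienol synthase to Csa5G478620 was 1.42, 2.71 and 2.45 in the mutant, against 0.0194, 0.00208 and 0.0928 in wild type libraries. Mutant ratios were thus at least 15.3 times the wild type ratios. Csa5G478620 is a lower gene of a table selected on this contrast, so this separation also follows from selection and is a description. Squalene monooxygenase itself was higher relative to Csa5G478620 in the mutant, with ratios of 4.39, 5.12 and 5.35 against 1.32, 1.21 and 1.71 in wild type libraries. Relative to squalene monooxygenase the P450 genes were likewise higher in the mutant, as their choice fixes, with the lowest mutant ratio between 3.77 and 6.37 times the highest wild type ratio. Since the unit is not named, only differences between libraries in these ratios can be read, not their absolute size.

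**Figure D3:**
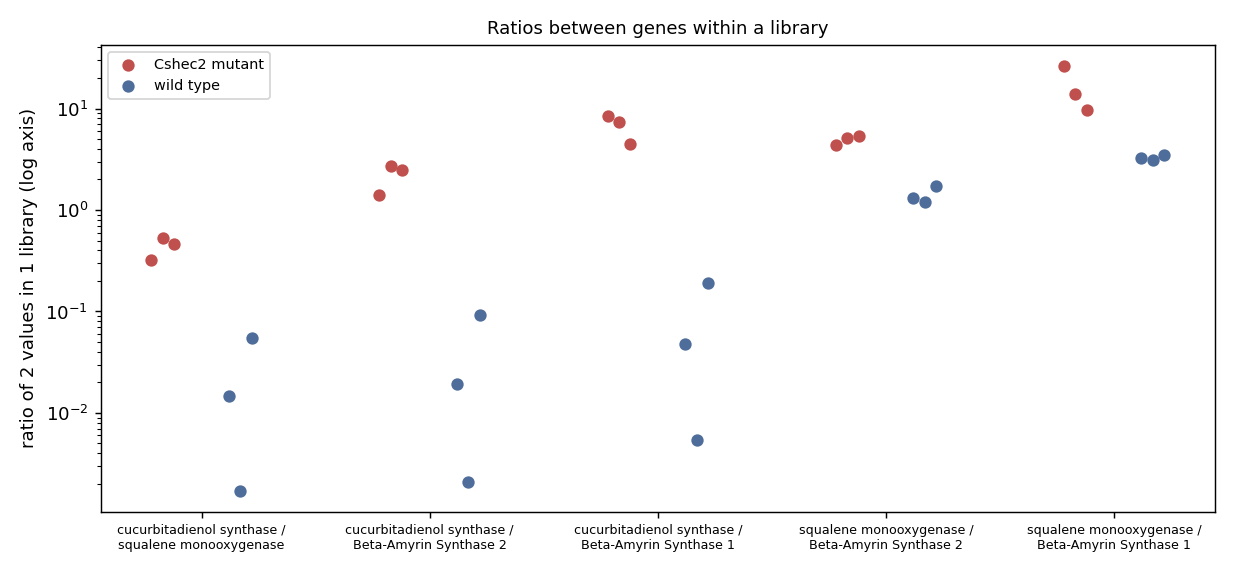
Ratio of 2 deposited values within the same library (log axis) for 5 gene pairs along the oxidosqualene branch point, with 3 Cshec2 mutant libraries left of 3 wild type libraries in each pair. In all 5 pairs the mutant ratios lie above the wild type ratios. For a higher gene over a lower gene this follows from their selection. For cucurbitadienol synthase over squalene monooxygenase the mutant ratios lie between 0.323 and 0.529, against 0.00172 to 0.0543 in wild type.

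The proportion of P450 genes to the cyclase was read in the same way. The ratio of Csa6G088160 to the cyclase was 1.01, 1.09 and 0.795 in mutant libraries 1 to 3, against 1.33, 7.98 and 1.59 in wild type libraries 1 to 3. For Csa6G088170 it was 1.93, 1.55 and 1.38 in the mutant, against 2.87, 15.5 and 1.80 in wild type libraries. For Csa6G088710 it was 1.550, 1.568 and 1.247 in the mutant, against 5.48, 24.6 and 2.25 in wild type libraries. For Csa3G903540 it was 5.37, 5.09 and 3.49 in the mutant, against 16.4, 61.7 and 6.60 in wild type libraries. Wild type library 2, with a cyclase value of 0.0511, stands apart in all 4. The other wild type ratios were close to each other for Csa6G088160 and farther apart for Csa6G088710 and Csa3G903540. The 6 genes also varied more between replicate libraries than most listed genes. The SD of their log2 values lay between 0.25 and 0.46 in the mutant and between 0.31 and 0.78 in wild type, where the table's medians were 0.13 and 0.28.

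The candidate P450 genes were 4 of 40 listed cytochrome P450 genes, and after median-of-ratios scaling 11 of the 40 passed as higher and 4 as lower. As deposited, of the 36 other P450 genes, 7 passed as higher, 26 passed as lower and 3 did not pass, with a median log2 difference of -0.73 against -0.77 for all listed genes. These shares are near the 18.4% higher and 74.3% lower of the whole table, so nothing particular to the family is read from them. The 4 candidates held ranks 1, 2, 3 and 5 of the 40 by log2 difference. They were chosen for being higher, so this position follows from the choice. The gene at rank 4 was Csa6G504720, described as CYP84A1, at 1.83. At the other end Csa5G224130, described as CYP714A1, averaged 1.03 ± 0.147 in mutant and 15.9 ± 13.3 in wild type buds, and it did not pass after median-of-ratios scaling or without wild type library 2. Csa4G621720, described as 11-oxo-beta-amyrin 30-oxidase, an enzyme that in licorice acts after beta-amyrin 11-oxidase, was also lower. It measured 1.87, 1.44 and 1.66 in mutant libraries 1 to 3, against 6.19, 14.9 and 31.2 in wild type libraries 1 to 3. Csa6G487530, described as the alkane hydroxylase MAH1, averaged 2.78 ± 1.35 in mutant and 15.4 ± 2.34 in wild type buds.

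**Figure D4:**
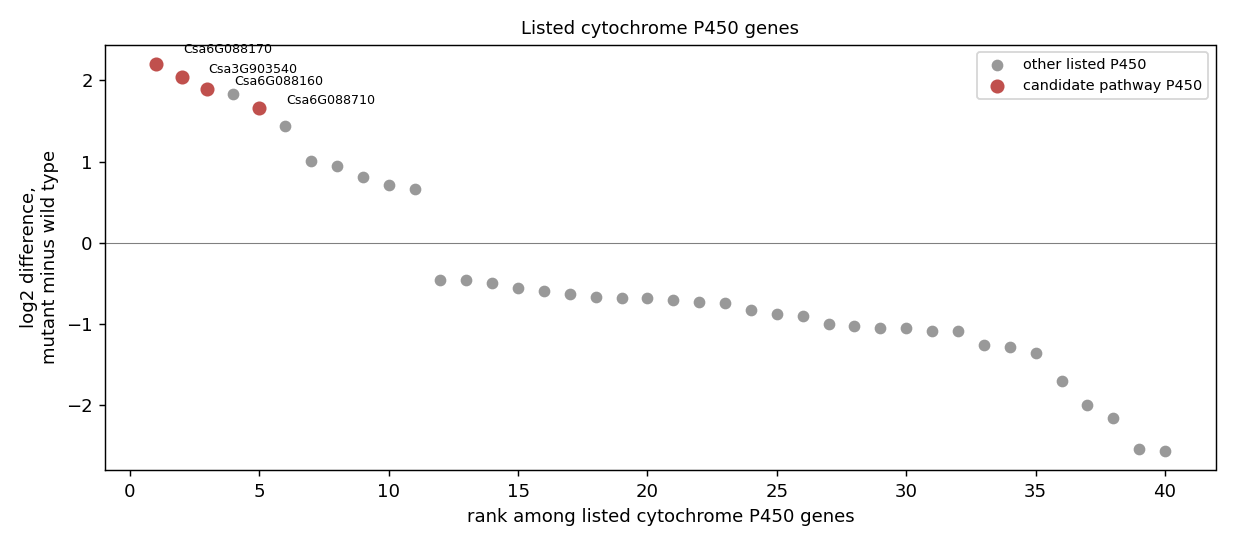
Difference in log2(value + 1), Cshec2 mutant minus wild type, of the 40 listed cytochrome P450 genes ordered by that difference; red points are the 4 candidate pathway genes and grey points the other 36. The candidates take ranks 1, 2, 3 and 5, at 2.20, 2.05, 1.90 and 1.66, and 29 of the 40 genes lie below 0, against 22 after median-of-ratios scaling.

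Families whose members can act later on triterpenes were counted against the same table shares, 18.4% higher and 74.3% lower, and nothing particular to them is read from the counts. Of 9 listed BAHD acyltransferase genes, a family that includes the enzyme adding an acetyl group to cucurbitacins, 2 passed as higher, 6 as lower and 1 did not pass; median-of-ratios scaling left 2 higher and 0 lower. Of 18 UDP-glycosyltransferase genes 3 passed as higher, 13 as lower and 2 did not pass, with 3 higher and 3 lower after that scaling. Csa6G366250, described as UGT74E2, was among the higher ones and had values of 2.60, 5.41 and 6.12 in mutant libraries 1 to 3, against 1.73, 0.523 and 1.33 in wild type libraries 1 to 3. It shared with the cyclase that mutant library 1 and wild type library 2 were lowest. Of the lower genes with large differences, Csa4G618520, described as a flavonoid glucosyltransferase, averaged 0.235 ± 0.147 in mutant and 2.97 ± 0.919 in wild type buds, and Csa7G058650, described as 7-deoxyloganetin glucosyltransferase, averaged 72.2 ± 5.26 in mutant and 189 ± 26.7 in wild type buds. Of these, Csa7G058650 did not pass after median-of-ratios scaling (log2 difference -0.45). Csa4G308490, described as the cutin acyltransferase DCR, averaged 1.49 ± 0.204 in mutant and 10.3 ± 8.74 in wild type buds. Its wild type libraries were uneven, and its call was lost after median-of-ratios scaling and when mutant library 2 was left out. Csa2G147920, described as ECERIFERUM 26, and Csa3G635870, described as UGT74G1, were also lower, by -1.28 and -1.23 on the log2 scale, and did not pass after that scaling.

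The list for the sterol branch held 2 genes, both described as 24-methylenesterol C-methyltransferase 2, an enzyme that shapes the sterol side chain. The second annotation names both methyltransferase-like protein 7A, so their place in the sterol branch is uncertain. Both passed as lower. Csa5G606270 averaged 0.482 ± 0.109 in mutant and 1.94 ± 0.311 in wild type buds, and Csa5G606280 averaged 5.19 ± 0.335 in mutant and 8.07 ± 1.77 in wild type buds. After median-of-ratios scaling Csa5G606270 still passed as lower, while Csa5G606280 had a log2 difference of 0.27 and did not pass, nor did it pass when any mutant library was left out. Of 5 other terpenoid genes, which were added after their values were seen, 3 passed as higher and 2 as lower, with the same counts after that scaling. The higher ones were Csa1G420340, described as a deoxyxylulose phosphate synthase of the plastid isoprenoid pathway, Csa1G435760, described as the carotenoid-cleaving NCED5, whose call was lost without any 1 mutant library and without wild type library 2, and Cucumis_sativus_newGene_1337, described as a terpene synthase. The lower ones were Csa6G185830 above and Csa3G040850, described as germacrene D synthase, at 1.34 ± 0.261 in mutant and 25.3 ± 14.9 in wild type buds. The 9 listed genes with a basic helix-loop-helix domain, the class that holds the known activators of cucumber bitterness, included 3 that passed as higher, 5 as lower and 1 that did not pass; that scaling left 3 higher and 2 lower. None of the 9 genes was described as a bitterness regulator. Their Swiss-Prot names all come from Arabidopsis thaliana, so the descriptions cannot tell whether such a regulator is among them. The mutated gene itself was not analysed here.

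The authors' deposited table gives its own log2 fold changes for the 6 genes, which were smaller than the ratios of the deposited values for the higher genes. In the authors' deposited table cucurbitadienol synthase (Cucumis_sativus_newGene_607) has a log2 fold change of 0.77, where the log2 ratio of its mean values is 3.36. The gap of 2.59 was the 2nd largest among the 291 genes listed as higher with values above 0 in both genotypes, whose median gap was 0.14. In the authors' deposited table Csa6G088160 has 1.47 where the ratio gives 2.54, Csa6G088170 has 2.00 where it gives 2.71, Csa6G088710 has 1.45 where it gives 1.98, and Csa3G903540 has 1.19 where it gives 2.09. For squalene monooxygenase the authors' deposited table has -0.96 and the ratio gives -1.0. The cause of these gaps was not tested. In the authors' deposited table the FDR of the cyclase is 0.0403, and 49 listed genes have a larger one. By these values the cyclase lies just inside the authors' limit, and its log2 fold change there is not far above the smallest absolute value listed, 0.585.

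**Figure D5:**
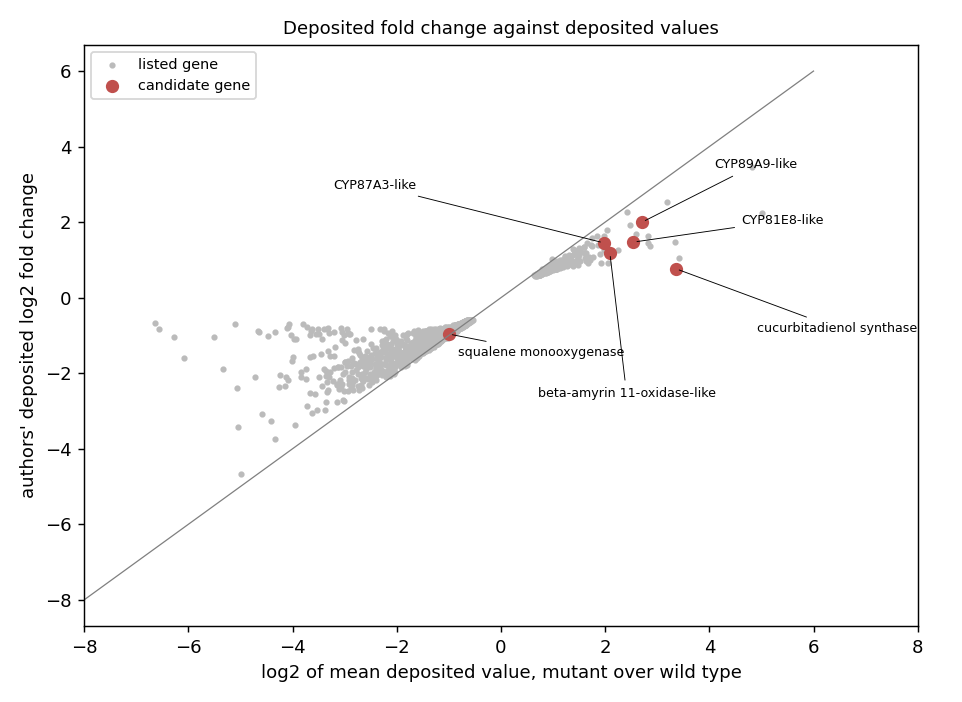
Authors' deposited log2 fold change against the log2 ratio of mean deposited values, Cshec2 mutant over wild type, for 1586 listed genes in grey and the 6 genes in red; the line marks equal values. Cucurbitadienol synthase lies farthest from the line among the 6, at 0.77 against 3.36, and squalene monooxygenase lies on it, at -0.96 against -1.0.

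The listed table gives little check of the labelled tissue. Of the carpel and ovule markers it holds 1 gene, Csa5G606780, described as CRABS CLAW, a regulator of carpel and nectary development, with values between 233 and 266 in mutant and between 110 and 168 in wild type libraries. It lists 0 genes described by pollen, anther or tapetum. The 2 listed leaf markers, Csa3G664560 and Csa1G033310, both described as chlorophyll a-b binding proteins, summed to between 11.8 and 14.0 in mutant and to between 24.3 and 42.5 in wild type libraries. The carpel marker passed as higher and both leaf markers as lower, where 18.4% of all listed genes passed as higher and 74.3% as lower. No difference in tissue is read from these markers, and their part in the results above was not tested.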

How the data were processed

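Total RNA of female buds was extracted with Trizol and made into libraries with an Illumina-platform kit, per the labels' protocols. The submitters' processing notes list HISAT2, HISAT and DESeq2 with neither role nor version, and the genome build is not given in the sources used here. In the deposited table each library has 1 normalised expression signal per gene, in an unnamed unit, so read depth is unknown and no detection limit is given. The authors' FDR column (p-value adjusted by the authors) and log2 fold change column were used as deposited; 1 gene lacks both.

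All 1589 genes were fitted in limma 3.58.1 (R 4.3.3) with a variance trend on log2(value + 1), 3 against 3 libraries, without a filter, and p-values were adjusted over the table at 0.05. The fold changes so obtained understate low genes. The step was run on simulated data in which a minority of genes, none of them low in value, was raised by known amounts. No gene was lowered there, unlike in this table, and genes as low as the cyclase were not among those raised. The simulation therefore does not check the calls of such genes. The genes and the keyword lists, matched to protein descriptions and domains, were chosen with earlier results of these data known. Named genes were the 6 candidates, all listed mevalonate, cyclase and sterol genes, up to 6 P450 and 6 decorating enzymes with the largest differences and no overlap, the 5 genes most alike within genotypes (mean at least 1), and genes within 1000 in identifier number; Csa6G504720 and the terpenoid genes were added after their values were seen. Alternatives were pseudocounts of 0.1 and 0.5, median-of-ratios scaling, a mean of at least 1, no trend, the replicate number as a block, and each library left out. Figures used matplotlib 3.10.9.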

Additional observations from a re-analysis of the deposited data

How the results depend on the processing

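The 5 higher genes had positive differences under every alternative run. They were chosen as higher and did not overlap between genotypes. Another pseudocount or a library left out could therefore not change that sign, and nothing is read from it. Squalene monooxygenase (Csa7G069710) lost its call after median-of-ratios scaling, at a difference smaller than its SE (0.25) and with libraries of the genotypes interleaved. With a pseudocount of 0.1 the log2 differences were 3.67 for Cucumis_sativus_newGene_607, 2.69 for Csa6G088160 and 2.76 for Csa6G088170, which follows from their low wild type values. After median-of-ratios scaling they were 2.87 for Cucumis_sativus_newGene_607, 2.53 for Csa6G088160, 2.90 for Csa6G088170, 2.40 for Csa6G088710, 2.89 for Csa3G903540 and -0.063 for Csa7G069710. That scaling moved the median of all listed genes to -0.025 and left 518 listed genes past the threshold (293 higher and 225 lower, 43.4% lower). As deposited, 1473 listed genes had passed (293 higher and 1180 lower, 80.1% lower). Of the other keyword-list genes, many of them outside the cucurbitacin pathway, 32 passed after that scaling, in place of 74. Because median-of-ratios scaling centres a table of selected and mostly lower genes, it raises differences and removes lower calls by its own construction. For the same reason, higher calls that stayed higher after it were not tested by it. With each library left out in turn the counts lay between 1088 and 1525 listed genes and between 60 and 79 other keyword-list genes. Same-numbered libraries did not deviate together (r = -0.09, -0.04 and -0.18 over the listed genes), so the numbers were not taken as pairs. With the replicate number as a block 1392 listed genes and 72 other keyword-list genes passed. Among the named genes Csa5G606280 alone lost its call in that fit (-0.53, SE 0.21). Read depth is unknown, so low values such as that of the cyclase in wild type library 2 have no counting error.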
